A study of Mus musculus with 10 samples.

Results

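The genes described here are 10 that fibroblasts of the heart use or secrete into the extracellular matrix: *Dpt*, *Dcn*, *Lum*, *Postn*, *Cilp*, *Fn1*, *Pdgfra*, *Tcf21*, *Comp* and *Thbs4*. They were chosen by name, with earlier results of these hearts known, out of 57185 genes with counts, of which 13452 were tested between the genotypes. All 10 passed the count filter. *Dpt*, the gene of dermatopontin, was 1.91-fold higher in cRADΔ/Δ-MLPKO than in MLPKO hearts, with no overlap between the mice. *Dcn*, *Pdgfra* and *Tcf21*, which mark the fibroblasts themselves, had genotype means within 1.16-fold of each other. For *Postn*, *Cilp*, *Comp* and *Thbs4*, which injured or strained hearts express strongly, the SD among MLPKO mice exceeded the difference between the genotype means, as it also did for *Dcn* and *Pdgfra*. Without MLPKO mouse 2, the MLPKO SDs of *Postn*, *Cilp*, *Comp* and *Thbs4* fell from 1079, 1565, 658 and 4533 normalized counts to 361, 328, 71.7 and 240. *Comp*, *Thbs4* and *Cilp* varied together over the mice by Pearson correlation, and so did *Dcn* and *Lum*. By rank correlation, no pair of the 10 genes had an adjusted permutation p under 0.05.

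Apical tissue of the ventricles, labelled as left ventricle, was taken from 5 MLPKO and 5 cRADΔ/Δ-MLPKO male mice aged 16 weeks by the labels, 1 library per mouse and a separate animal each. Both genotypes lack muscle LIM protein (MLP, gene *Csrp3*), which gives a dilated cardiomyopathy, both carry floxed *Rrad* alleles (RAD fl/fl), and both received tamoxifen at 100 mg/kg at 10 weeks of age. The labels also place the hearts 1 month after tamoxifen, which is shorter than the time from 10 to 16 weeks of age. This difference was not resolved here. The cRADΔ/Δ-MLPKO mice (MLPKO-cRADKO in the labels) also carry the MYH6-MerCreMer transgene, whose promoter is active in cardiomyocytes, so that tamoxifen deletes *Rrad*, the gene of RAD, a brake on the L-type calcium channel, in cardiomyocytes alone. The MLPKO mice carry no Cre, so any effect of the recombinase itself cannot be told apart from that of the deletion, and fibroblasts keep *Rrad* in both genotypes by design.

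Cardiac fibroblasts are a resident cell type that lays down and remodels the matrix between the myocytes. They are recognised by the receptor PDGFRα and the transcription factor TCF21, and at rest they make small leucine-rich proteoglycans such as decorin, which coat and space collagen fibrils. After injury or under strain they proliferate and turn on matricellular proteins such as periostin, cartilage intermediate layer protein and the pentameric thrombospondins, which bind collagen, growth factors and cells without being load-bearing fibres.

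The libraries held 33457406 to 49965101 counts each, and normalized counts are counts scaled by TMM factors to the mean library size. *Rrad* had 5774 to 11644 normalized counts in the MLPKO mice and 5562 to 8362 in the cRADΔ/Δ-MLPKO mice, which overlapped. These counts take in all exons and all cell types of the tissue, so they do not check the deletion. *Csrp3*, which the labels name as knocked out in both genotypes, was also read in all 10 mice, with 41726 to 134784 normalized counts in MLPKO and 28554 to 48662 in cRADΔ/Δ-MLPKO. Counts per gene do not show which of its exons were read, so they do not check this knockout either. Over all 13452 genes, 369 were called between the genotypes by edgeR's quasi-likelihood test at an adjusted p under 0.05, 21.6% had an unadjusted p under 0.05, and the median log2 fold change was 0.01. A log2 fold change here is cRADΔ/Δ-MLPKO minus MLPKO, with its standard error (SE).

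Mice that stood apart bear on many of the values. MLPKO mouse 2 had the highest value of its genotype for 8 of the 10 genes. Among the cRADΔ/Δ-MLPKO mice, mouse 1 was the highest for 6 genes, mouse 3 for 3 genes (*Dpt*, *Postn* and *Fn1*) and mouse 4 the lowest for 6. The library of cRADΔ/Δ-MLPKO mouse 3 also held adipocyte transcripts. Its 7 adipocyte markers summed to 3713 normalized counts, against 0 to 30 in the other cRADΔ/Δ-MLPKO mice and 2 to 38 in the MLPKO mice, and included 216 raw counts of *Adipoq*, 330 of *Plin1* and 2232 of *Cfd*. Values without these mice stand beside the results they move most.

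Normalized to transcript length, the transcript of decorin was the most abundant of the 10. *Dcn* had 3876 normalized counts per kilobase of its canonical transcript over the 10 mice, followed by *Lum* at 1452, *Postn* at 1085, *Dpt* at 726, *Thbs4* at 636, *Cilp* at 599, *Pdgfra* at 443, *Fn1* at 334, *Tcf21* at 199 and *Comp* at 166. Only the step from *Dcn* to *Lum* was free of overlap between mice, in both genotypes. The other 8 neighbouring pairs in each genotype overlapped. *Dpt* held the sixth place per kilobase in MLPKO, at 499 ± 44.0 (SD, n = 5), next to *Pdgfra* at 446 ± 51.3, and the fourth place in cRADΔ/Δ-MLPKO, at 952 ± 174, next to *Postn* at 1073 ± 707. *Thbs4* held the fourth place in MLPKO, at 948 ± 1417 per kilobase with a range of 215 to 3480, and the eighth in cRADΔ/Δ-MLPKO, at 325 ± 293. The choice of length matters for this order. With the length of all annotated exons, *Dpt* came second over the 10 mice, at 726 per kilobase after *Dcn* at 1815 and before *Lum* at 557.

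**Figure D1:**
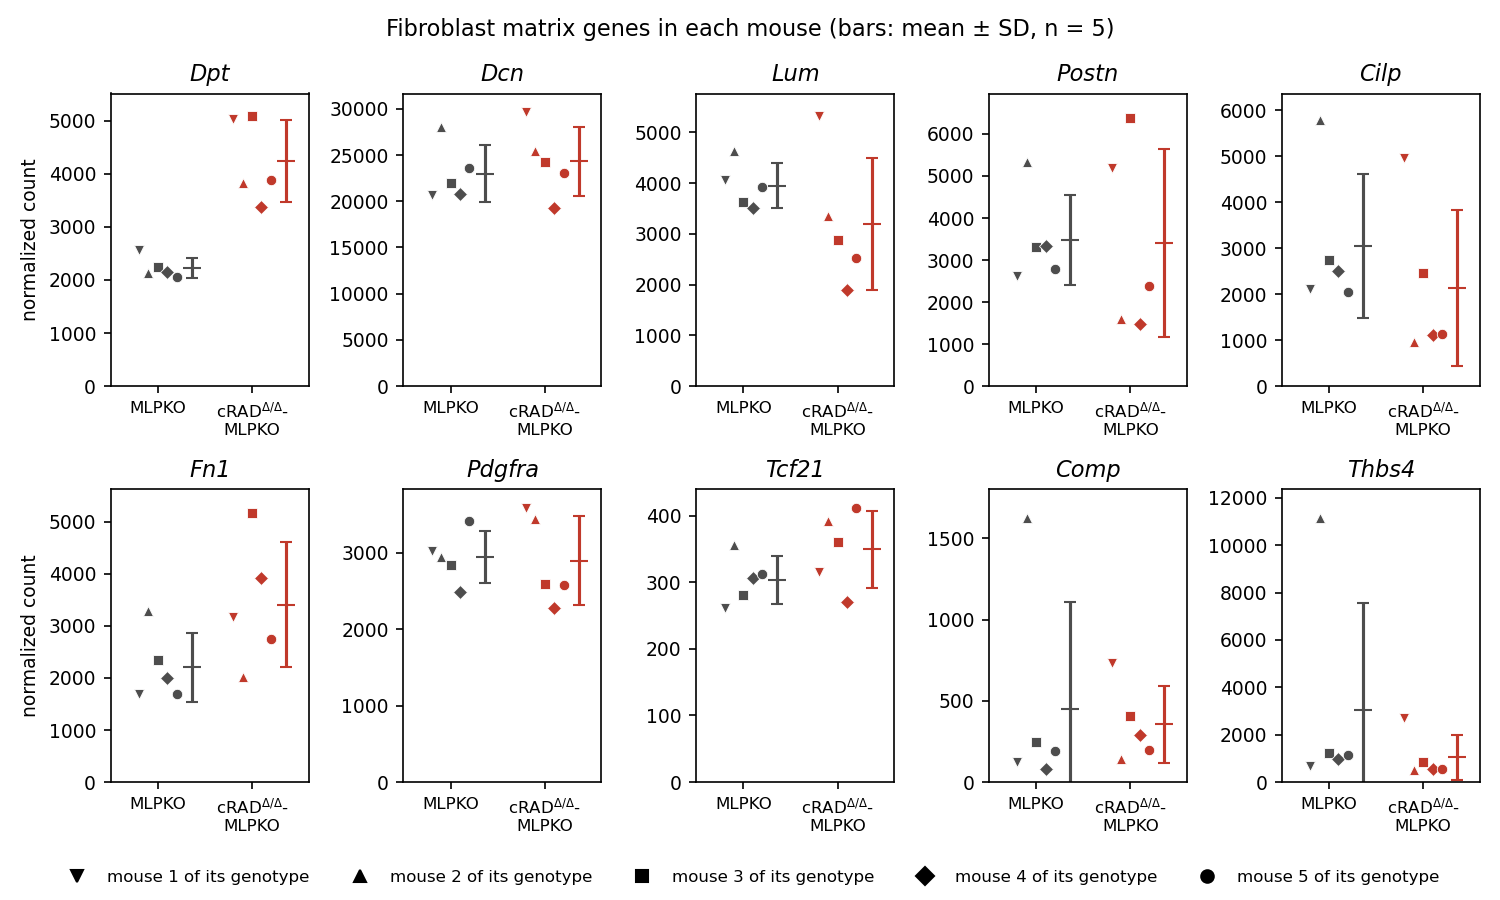
Normalized counts (vertical axes, each from 0) of the 10 fibroblast matrix genes in 5 MLPKO mice (grey) and 5 cRADΔ/Δ-MLPKO mice (red), with 1 symbol per mouse number and bars for the mean ± SD. The *Dpt* values of the genotypes do not overlap (2059 to 2558 against 3377 to 5099), and MLPKO mouse 2 sits far above the other MLPKO mice for *Cilp*, *Comp* and *Thbs4*. The lower SD bars of *Comp* and *Thbs4* in MLPKO are cut off at 0.

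*Pdgfra* (chr5:75311994-75358876, plus strand, GRCm39), the receptor that marks fibroblasts, had 2485 to 3423 normalized counts in MLPKO (median mouse 2947) and 2280 to 3582 in cRADΔ/Δ-MLPKO (median mouse 2595). The means were 2942 ± 338 and 2896 ± 580 (SD, n = 5 each), a log2 fold change of −0.02 (SE 0.13). *Tcf21* (chr10:22692803-22696073, minus strand), a transcription factor that cardiac fibroblasts need to form and go on expressing, had 261 to 356 normalized counts in MLPKO and 270 to 411 in cRADΔ/Δ-MLPKO, 303 ± 36.1 against 350 ± 57.7 (SD, n = 5 each), a log2 fold change of 0.21 (SE 0.13). The mice of the genotypes overlapped for both genes. In RNA of whole tissue, fewer cells of a type and less RNA per cell cannot be told apart, for these 2 genes as for the rest.

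*Dcn* (chr10:97315275-97358155, plus strand) codes for decorin, which binds collagen fibrils and holds TGF-β. Its normalized count was 20633, 28007, 21987, 20800 and 23569 in MLPKO mice 1 to 5 and 29632, 25384, 24215, 19281 and 23077 in cRADΔ/Δ-MLPKO mice 1 to 5. The means of 22999 ± 3036 and 24318 ± 3752 (SD, n = 5 each) gave a log2 fold change of 0.08 (SE 0.12), smaller than the spread among mice. *Lum* (chr10:97400990-97408577, plus strand), the gene of lumican, a relative of decorin that also regulates fibril assembly, starts 42834 bases beyond the end of *Dcn* on the same strand. Its normalized count was 4061, 4629, 3619, 3504 and 3921 in MLPKO and 5319, 3357, 2884, 1902 and 2530 in cRADΔ/Δ-MLPKO. Mice 2 to 5 of cRADΔ/Δ-MLPKO were all below the lowest MLPKO mouse, and mouse 1 was above the highest. The log2 fold change of *Lum* was −0.30 (SE 0.22) with all mice and −0.56 without cRADΔ/Δ-MLPKO mouse 1. The other proteoglycan genes of this cluster were close to silent, with at most 2 raw counts of *Kera* and 10 of *Epyc* in any library.

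*Dpt* (chr1:164624187-164654544, plus strand) codes for dermatopontin, a small matrix protein that binds decorin and speeds the assembly of collagen and fibronectin fibrils. The 250 bases before its start are shown because *Dpt* is the gene whose genotypes separated. They were read from the GRCm39 genome at chr1:164623937-164624186, plus strand, with the gene starts of GENCODE M39, and capitals mark the palindromic E-box letters CAGCTG, 155 to 150 bases before the start.
Dpt: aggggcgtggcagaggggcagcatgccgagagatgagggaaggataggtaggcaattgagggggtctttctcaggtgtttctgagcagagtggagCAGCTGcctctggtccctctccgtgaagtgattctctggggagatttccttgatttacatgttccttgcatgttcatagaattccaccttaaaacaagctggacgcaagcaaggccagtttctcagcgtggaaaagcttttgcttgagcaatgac
Both strands of this window and of the others shown here were searched for 5 motifs. These were the TATA box, read as TATAAA, and the AP-1 site, with TGANTCA as its letters. The search also took GGAATG for TEAD factors. It took the E-box already named, and the CCAAT box by its own letters. No matches of different motifs overlapped in the windows shown. CAGCTG lies in the same window of 12.0% of 21770 protein-coding genes, and no other of these motifs was in the *Dpt* window. The window also covers an exon of *Gm32652*, a long noncoding RNA of the opposite strand.

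The normalized count of *Dpt* was 2558, 2127, 2237, 2147 and 2059 in MLPKO mice 1 to 5. It was 5034, 3834, 5099, 3377 and 3884 in cRADΔ/Δ-MLPKO mice 1 to 5. The MLPKO mice lay within a narrow range, and the lowest cRADΔ/Δ-MLPKO mouse was above the highest MLPKO mouse. The means were 2226 ± 196 and 4246 ± 775 (SD, n = 5 each), a log2 fold change of 0.93 (SE 0.12), at the 99.0th percentile of all 13452 genes. *Dpt* was chosen with this difference known, so no p is given for it and nothing is read from its call. It was the 1 gene of the 10 called by edgeR, against 2.74% of all genes tested (DESeq2 called *Dpt* too, against 9.65% of all genes, and gave *Thbs4* no adjusted p), and the 1 gene whose genotypes did not overlap, against 6.61% of all genes. Over 19 other settings its log2 fold change stayed between 0.85 and 1.01, and it was 0.86 without the mouse that held adipocyte transcripts. Whether the authors' counting used strand is not given in the sources used here, so reads of a gene and of an opposite-strand gene over it might not be told apart. *Gm32652*, which overlaps *Dpt*, had at most 6 raw counts in any library, *Gm10824* over *Tcf21* 8 to 30 and *Apol7d* over *Fn1* at most 2.

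*Dpt* was also higher against the fibroblast genes of the same heart. These ratios were chosen after the values had been seen and are a description. Per 100 normalized counts of *Dcn*, the MLPKO mice had 12.4, 7.6, 10.2, 10.3 and 8.74 of *Dpt*, and the cRADΔ/Δ-MLPKO mice had 17.0, 15.1, 21.1, 17.5 and 16.8, without overlap. Per 100 of *Pdgfra*, MLPKO mice had 76.5 ± 10.7 and cRADΔ/Δ-MLPKO mice 149 ± 30.7 (SD, n = 5 each), again without overlap (60.1 to 86.4 against 111 to 197). Per 100 of *Tcf21* the ratio was 747 ± 149 against 1237 ± 280, and the lowest cRADΔ/Δ-MLPKO mice, at 944 and 977, reached below the highest MLPKO mouse at 981. Within the decorin family the order was the other way round. *Lum* per 100 *Dcn* was 19.7, 16.5, 16.5, 16.8 and 16.6 in MLPKO and 17.9, 13.2, 11.9, 9.86 and 11.0 in cRADΔ/Δ-MLPKO, where mouse 1 alone reached the MLPKO range.

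**Figure D2:**
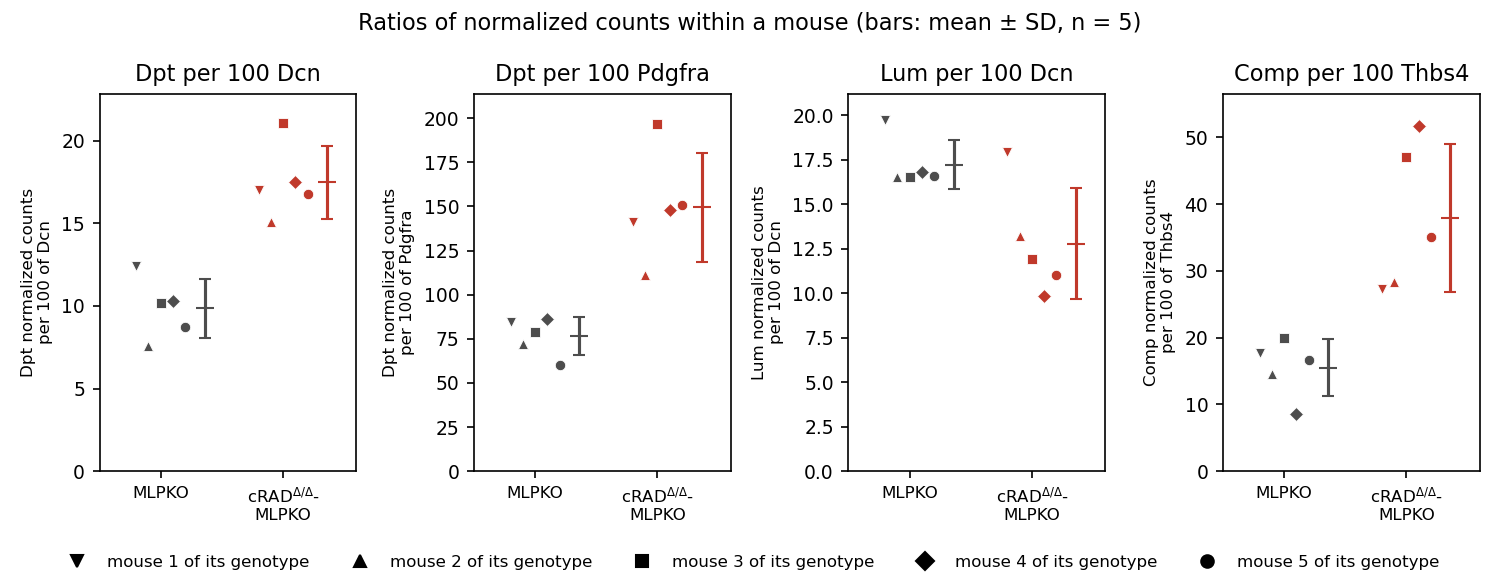
Ratios of normalized counts of 2 genes within each mouse (vertical axes, from 0), for 5 MLPKO mice (grey) and 5 cRADΔ/Δ-MLPKO mice (red), with bars for the mean ± SD. *Dpt* per 100 *Dcn*, *Dpt* per 100 *Pdgfra* and *Comp* per 100 *Thbs4* do not overlap between the genotypes, and *Lum* per 100 *Dcn* overlaps through cRADΔ/Δ-MLPKO mouse 1.

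*Fn1* (chr1:71624673-71692419, minus strand) codes for fibronectin, the adhesive glycoprotein on which other matrix is assembled. Its normalized count was 1695, 3293, 2344, 1999 and 1693 in MLPKO and 3167, 2021, 5172, 3926 and 2752 in cRADΔ/Δ-MLPKO. The means were 2205 ± 665 and 3408 ± 1203 (SD, n = 5 each), a log2 fold change of 0.63 (SE 0.25). The genotypes overlapped through MLPKO mouse 2 and cRADΔ/Δ-MLPKO mouse 2. The value was 0.82 without MLPKO mouse 2 and 0.44 without cRADΔ/Δ-MLPKO mouse 3, whose *Fn1* was the highest. That library also had the highest summed macrophage markers, 23211 normalized counts against 10885 to 16356 in the other cRADΔ/Δ-MLPKO mice. Their part in the *Fn1* value was not tested.

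*Postn* (chr3:54268501-54298471, plus strand) codes for periostin, a matricellular protein of activated fibroblasts. Its normalized count was 2622, 5322, 3308, 3331 and 2790 in MLPKO and 5180, 1585, 6371, 1472 and 2384 in cRADΔ/Δ-MLPKO. Mice 1 and 3 of cRADΔ/Δ-MLPKO were near or above the highest MLPKO mouse, and the other 3 were below the lowest MLPKO mouse. The means of 3475 ± 1079 and 3398 ± 2238 gave a log2 fold change of −0.03 (SE 0.39), which was 0.17 without MLPKO mouse 2 and −0.38 without cRADΔ/Δ-MLPKO mouse 3.

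*Cilp* (chr9:65172200-65187888, plus strand) codes for cartilage intermediate layer protein, a matrix protein that hearts express under pressure or after infarction. The 250 bases before its start (chr9:65171950-65172199, plus strand, GRCm39) are shown for comparison with the other genes that varied together with it. Capitals mark GGAATG, the letters bound by TEAD factors, 149 to 144 bases before the start, and TATAAA, the TATA box letters, 97 to 92 bases before it.
Cilp: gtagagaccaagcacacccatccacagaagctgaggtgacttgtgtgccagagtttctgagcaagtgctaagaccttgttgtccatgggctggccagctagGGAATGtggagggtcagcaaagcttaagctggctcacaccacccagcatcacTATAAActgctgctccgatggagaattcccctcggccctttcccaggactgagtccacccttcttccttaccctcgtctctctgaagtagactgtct
GGAATG or its reverse complement lies in such a window of 12.4% of genes, and TATAAA in 12.5%. The normalized count of *Cilp* was 2116, 5790, 2742, 2491 and 2043 in MLPKO and 4953, 953, 2463, 1121 and 1130 in cRADΔ/Δ-MLPKO. MLPKO mouse 2 and cRADΔ/Δ-MLPKO mouse 1 were high, and 3 cRADΔ/Δ-MLPKO mice were below every MLPKO mouse. The means were 3036 ± 1565 and 2124 ± 1694 (SD, n = 5 each), a log2 fold change of −0.52 (SE 0.46). Single mice set its size, as it was −0.15 without MLPKO mouse 2, −1.1 without cRADΔ/Δ-MLPKO mouse 1 and −0.73 (SE 0.26) without both.

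*Comp* (chr8:70826192-70834716, plus strand) and *Thbs4* (chr13:92888095-92931501, minus strand) code for the pentameric thrombospondins COMP and thrombospondin-4. COMP links collagen fibrils in cartilage and tendon, and thrombospondin-4 is induced in the strained heart. The windows before their starts, chr8:70825942-70826191 on the plus strand and chr13:92931502-92931751 on the minus strand, are shown because these genes varied together most closely. In *Comp*, capitals mark CCAAT 197 to 193 bases and CAGCTG 140 to 135 bases before the start. In *Thbs4*, they mark CATTCC, the reverse complement of GGAATG, found at 22 to 17 and at 17 to 12 bases before the start, so that the matches share a base.
Comp: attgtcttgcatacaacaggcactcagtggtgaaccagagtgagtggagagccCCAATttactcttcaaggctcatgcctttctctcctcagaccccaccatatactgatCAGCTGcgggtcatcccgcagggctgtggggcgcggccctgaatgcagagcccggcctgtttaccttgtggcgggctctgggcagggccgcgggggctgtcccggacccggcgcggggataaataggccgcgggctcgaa
Thbs4: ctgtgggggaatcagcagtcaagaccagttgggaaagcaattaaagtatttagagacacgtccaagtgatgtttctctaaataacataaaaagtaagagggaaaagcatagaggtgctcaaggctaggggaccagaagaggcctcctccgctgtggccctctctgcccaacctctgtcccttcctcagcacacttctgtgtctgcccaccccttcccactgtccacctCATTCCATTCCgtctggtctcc
CCAAT is found in such a window of 36.1% of genes. *Cilp* and *Thbs4* both hold GGAATG or its reverse complement, and so does *Dcn*, at 2 places, whereas *Comp* and *Lum* do not. The *Comp* window covers an exon of *Gm51533*, a long noncoding RNA of the opposite strand that was not analysed here. TGANTCA, found in 6.5% of genes, was in none of the 10 windows. These matches describe the letters only.

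The normalized count of *Thbs4* was 687, 11130, 1229, 961 and 1145 in MLPKO and 2695, 509, 863, 557 and 569 in cRADΔ/Δ-MLPKO. MLPKO mouse 2 was far above every other mouse, and cRADΔ/Δ-MLPKO mouse 1 came next. The means were 3031 ± 4533 and 1039 ± 936 (SD, n = 5 each), a log2 fold change of −1.55 (SE 0.81). Without MLPKO mouse 2 the MLPKO mean was 1006 ± 240 (SD, n = 4) and the log2 fold change 0.04 (SE 0.46). Without cRADΔ/Δ-MLPKO mouse 1 as well, it was −0.69 (SE 0.20).

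The normalized count of *Comp* was 121, 1624, 244, 83 and 190 in MLPKO and 735, 144, 407, 288 and 200 in cRADΔ/Δ-MLPKO. The same mice, MLPKO mouse 2 and cRADΔ/Δ-MLPKO mouse 1, were the highest. The means were 452 ± 658 and 355 ± 234 (SD, n = 5 each), and the log2 fold change of −0.34 (SE 0.75) turned to 1.13 (SE 0.45) without MLPKO mouse 2. The ratio of the 2 genes was steadier than either. *Comp* per 100 *Thbs4* was 17.7, 14.6, 19.9, 8.6 and 16.6 in MLPKO and 27.3, 28.3, 47.1, 51.7 and 35.1 in cRADΔ/Δ-MLPKO, so every cRADΔ/Δ-MLPKO mouse had more *Comp* for its *Thbs4* than any MLPKO mouse. This ratio, too, was chosen after the values had been seen. MLPKO mouse 2 lay within the range of its genotype on it.

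*Comp* and *Thbs4* are best known from cartilage, tendon and muscle. Of 10 markers of valve, tendon and cartilage cells, 3 passed the count filter and *Matn1*, *Matn3* and *Col9a1* had at most 3 counts in every library. The summed markers were 781 to 1364 normalized counts in MLPKO and 830 to 1279 in cRADΔ/Δ-MLPKO, and the mice with the highest sums, MLPKO mouse 2 and cRADΔ/Δ-MLPKO mouse 1, were also the highest for *Comp* and *Thbs4*. Of 8 skeletal muscle markers, *Myh1* and *Myh4* had at most 3 counts in every library, and the sum, most of it *Ckm*, which cardiomyocytes also express, was 16363 to 24129 in MLPKO and 23887 to 27981 in cRADΔ/Δ-MLPKO, lowest in MLPKO mouse 2. Their part in the *Comp* and *Thbs4* values was not tested.

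**Figure D3:**
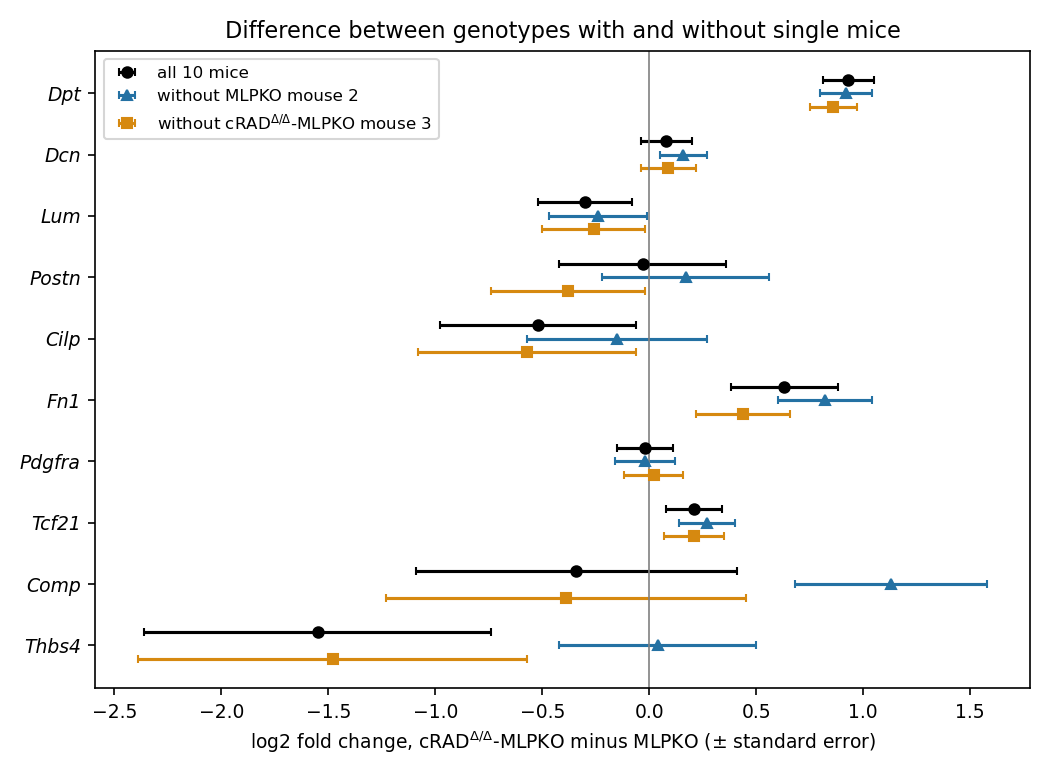
Log2 fold change of each of the 10 genes, cRADΔ/Δ-MLPKO minus MLPKO (horizontal axis), with its standard error, fitted with all 10 mice (black circles), without MLPKO mouse 2 (blue triangles) and without cRADΔ/Δ-MLPKO mouse 3 (orange squares). *Dpt* stays between 0.86 and 0.93, whereas *Comp* moves from −0.34 to 1.13 and *Thbs4* from −1.55 to 0.04 when MLPKO mouse 2 is left out.

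As a group, 4 of the 10 genes had a positive and 6 a negative log2 fold change, with a median of −0.03 beside 0.01 over all genes tested. The coefficient of variation (SD over mean) was larger in cRADΔ/Δ-MLPKO for 8 of the 10 genes, the exceptions being *Comp* and *Thbs4*, beside 37.9% of all genes tested. With the outlying mouse of each genotype left out, MLPKO mouse 2 and cRADΔ/Δ-MLPKO mouse 1, it was larger for 9 of 10, beside 46.1% of all genes. With all mice it was 8.82% against 18.3% for *Dpt*, 11.2% against 40.6% for *Lum* and 31.1% against 65.9% for *Postn*. These are descriptions, with no test.

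How the genes varied together within a genotype does not use the difference between genotypes. Each mouse was expressed as its deviation from its genotype's mean log2 CPM (library-scaled counts). Over 10 mice, the 45 pairs of genes had a median Pearson r of 0.56, 41 of them were positive, and 19 had r of at least 0.6. No share over pairs of all tested genes is given beside these counts, so they are not read as a trait of the 10 genes. The closest pair was *Comp* and *Thbs4* (Pearson r = 0.95, Spearman rho = 0.93). Exact two-sided permutation of the mice within each genotype gave p = 0.00139 for both, adjusted over the 45 pairs to 0.0302 for r and 0.0625 for rho. Leaving out the 2 mice farthest out for *Comp* gave r = 0.76. Values without the 2 farthest mice keep deviations from genotype means over all 10 mice, so an offset between the genotypes can remain in them. With the genotype means recomputed without these 2 mice, MLPKO mouse 2 and cRADΔ/Δ-MLPKO mouse 1, r was 0.73.

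*Cilp* went with both of these. It had r = 0.86 and rho = 0.70 with *Thbs4* (exact permutation p = 0.00201 and 0.0131, adjusted 0.0302 and 0.123), and r = 0.80 and rho = 0.70 with *Comp* (exact permutation p = 0.00278 and 0.0224, adjusted 0.0312 and 0.137). Without the 2 mice farthest out for *Cilp*, MLPKO mouse 2 and cRADΔ/Δ-MLPKO mouse 1, r was 0.61 with *Thbs4* and 0.51 with *Comp*. With the genotype means recomputed without these mice, it was 0.74 with *Thbs4* and 0.59 with *Comp*. *Postn* and *Cilp* had r = 0.88 and rho = 0.89 (exact permutation p = 0.0103 and 0.00389, adjusted 0.0633 and 0.0875), and r was 0.90 without the 2 mice farthest out for *Postn*. The within-genotype r of *Postn* and *Cilp* was 0.98 in MLPKO and 0.86 in cRADΔ/Δ-MLPKO, each over 5 mice.

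*Dcn* and *Lum* formed the other close pair, with r = 0.87 and rho = 0.81 (exact permutation p = 0.00153 and 0.0137, adjusted 0.0302 and 0.123). Their r was 0.82 without the 2 mice farthest out for *Dcn*, 0.80 within MLPKO and 0.98 within cRADΔ/Δ-MLPKO. *Lum* also went with *Pdgfra*, at r = 0.82 and rho = 0.89 (exact permutation p = 0.00792 and 0.0059, adjusted 0.0599 and 0.0885), with r = 0.66 without the 2 mice farthest out for *Lum*. The adjusted p of r was under 0.05 for 4 of the 45 pairs, those of *Comp*, *Thbs4* and *Cilp* with each other and *Dcn* with *Lum*, and that of rho for none.

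The pairs of *Dpt* had no adjusted p under 0.05. Its r was 0.63 with *Lum* (rho 0.38, exact permutation p = 0.156 and 0.369, adjusted 0.304 and 0.611, and r = 0.57 without its 2 farthest mice). It was 0.39 with *Dcn* (rho 0.22, exact permutation p = 0.358 and 0.598, adjusted 0.597 and 0.791, and r = 0.16 without its 2 farthest mice). With *Postn* it was 0.74 (rho 0.76, exact permutation p = 0.0926 and 0.0817, adjusted 0.208 and 0.283, and 0.40 without those mice). Within the genotypes, *Dpt* and *Postn* had r = −0.43 in MLPKO and 0.97 in cRADΔ/Δ-MLPKO, and the difference was not tested. *Fn1* was the gene with the most negative pair, r = −0.48 with *Pdgfra* (rho −0.45, exact permutation p = 0.224 and 0.246, adjusted 0.404 and 0.493, and r = −0.59 without the 2 mice farthest out for *Fn1*).

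**Figure D4:**
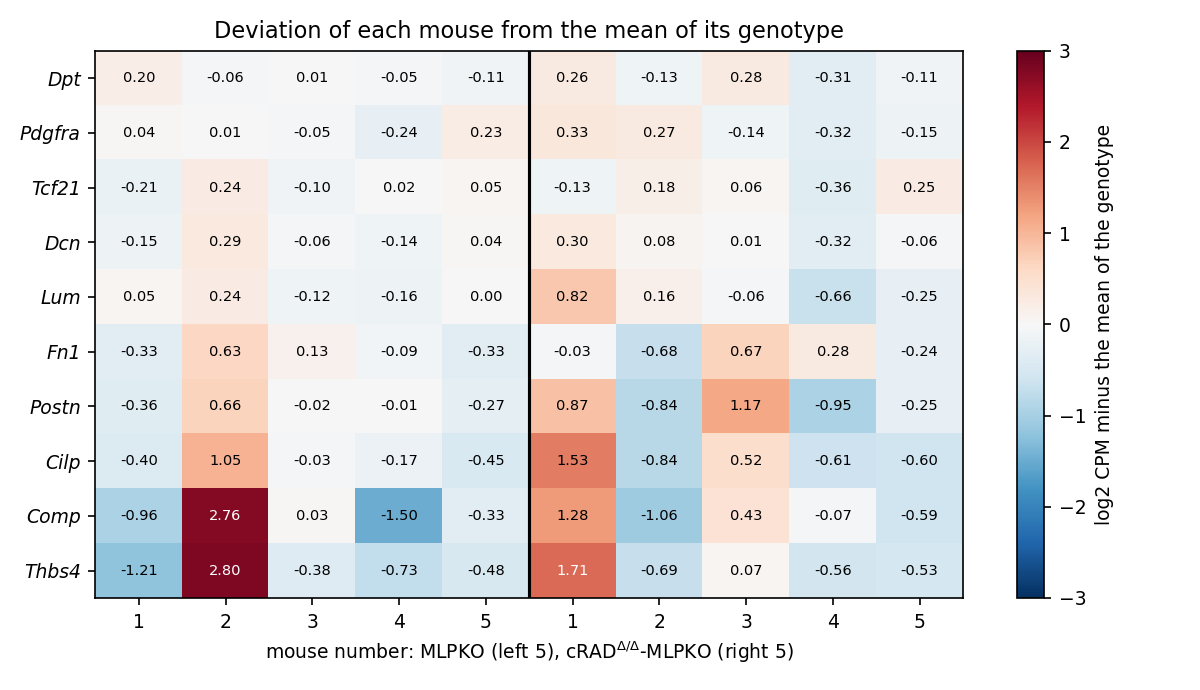
Deviation of each mouse from the mean of its genotype (log2 CPM; colour scale and printed values) for the 10 genes (rows), with MLPKO mice 1 to 5 left and cRADΔ/Δ-MLPKO mice 1 to 5 right of the line. *Comp* and *Thbs4* deviate by 2.76 and 2.80 in MLPKO mouse 2 and by 1.28 and 1.71 in cRADΔ/Δ-MLPKO mouse 1, whereas *Dpt* deviates by between −0.31 and 0.28 in all mice.

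Other genes followed *Dpt* and *Cilp* over the same 10 mice, among 11196 genes of sufficient level. The 5 most like *Dpt* were *Robo1* (r = 0.91), *Cdr2l* (0.91), *Ifi27l2a* (0.90), *Arrb2* (0.90) and *Lsp1* (0.89), and *Postn*, at place 105, was the nearest of the 10 genes. The 5 most like *Cilp* were *Mfap5* (r = 0.96), a microfibril glycoprotein, *Col12a1* (0.96), a fibril-associated collagen, *Mitd1* (0.95), *Dio2* (0.93), which activates thyroid hormone, and *S100a10* (0.92). *Postn* was at place 33 for *Cilp*, *Thbs4* at 45 and *Comp* at 124. These are the extremes of many correlations and carry no test.

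Each of these 10 genes had an edgeR adjusted p of 0.11 or more between the genotypes. *Mfap5* had 1178 ± 313 normalized counts in MLPKO and 1169 ± 546 in cRADΔ/Δ-MLPKO (SD, n = 5 each), a log2 fold change of −0.01 (edgeR adjusted p = 0.984). *Ifi27l2a*, an interferon-induced gene, had 273 ± 74.1 against 502 ± 270, a log2 fold change of 0.87 (edgeR adjusted p = 0.165).

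Of the relatives and partners of these genes that were tested, 5 were called, 3 higher and 2 lower in cRADΔ/Δ-MLPKO, beside 0.944% of all genes called higher and 1.8% called lower. The 9 lists held 3, 6, 8, 9, 10, 12, 19, 22 and 22 tested genes, with at most 1 called in each. No excess over all genes is read from so few calls. *Thbs2* (chr17:14885761-14914528), a trimeric thrombospondin that restrains matrix turnover and vessel growth, rose from 683 ± 171 to 1253 ± 131 normalized counts (SD, n = 5 each), a log2 fold change of 0.87 (SE 0.15, edgeR adjusted p = 0.0196), and all 5 cRADΔ/Δ-MLPKO mice were above all MLPKO mice. It was the 1 called gene of the 3 other thrombospondins, whose median log2 fold change was 0.53. All 3 had an unadjusted p under 0.05, 2 of them positive and 1 negative. *Thbs1*, an activator of TGF-β, had 1653 ± 641 against 902 ± 335 and was not called (log2 fold change −0.88, SE 0.30, adjusted p = 0.12).

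*Fbln1* (chr15:85090150-85170737), fibulin-1, which binds fibronectin and elastic fibres, rose from 3453 ± 647 to 5291 ± 467 normalized counts (log2 fold change 0.62, SE 0.12, edgeR adjusted p = 0.0246), with no overlap. It was the 1 gene called of 22 elastic fibre and microfibril genes, whose median was −0.04 with 17 negative and 2 with an unadjusted p under 0.05. *Htra3* (chr5:35809367-35837126), a secreted serine protease, rose from 3739 ± 489 to 5399 ± 666 (log2 fold change 0.53, SE 0.10, edgeR adjusted p = 0.0263), with no overlap. It was the 1 gene edgeR called of 22 genes of resting fibroblasts (median 0.09), of which 16 were positive and 6 negative. Of these 22, 8 had an unadjusted edgeR p under 0.05 and DESeq2 called 4 higher, beside 21.6% and 9.65% of all genes. Leaving out 1 mouse at a time, *Thbs2* stayed called in 8 of 10 fits and *Fbln1* and *Htra3* in 6 each.

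*Prrx1* (chr1:163041844-163142033), a transcription factor of mesenchyme and fibroblasts, fell from 3511 ± 763 to 2417 ± 85.4 normalized counts (log2 fold change −0.54, SE 0.12, edgeR adjusted p = 0.0369). MLPKO mice had 3044, 4866, 3131, 3282 and 3231 and cRADΔ/Δ-MLPKO mice 2480, 2465, 2335, 2314 and 2492, and without the high MLPKO mouse 2 the log2 fold change was −0.39 (adjusted p = 0.0076). It was the 1 gene called of 12 tested fibroblast transcription factors (median −0.01), of which 3 had an unadjusted p under 0.05. *Itgb5*, an integrin subunit for fibronectin and vitronectin, was the 1 called of 9 fibronectin receptors, lower with a log2 fold change of −0.45 (SE 0.09, edgeR adjusted p = 0.0277, median of the list −0.09). Of these 9, 6 were negative and 3 positive, 5 had an unadjusted p under 0.05, and DESeq2 called 1. *Prrx1* stayed called in 3 and *Itgb5* in 4 of the 10 fits without 1 mouse.

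No gene was called by edgeR in 4 further lists. Of 10 tested small leucine-rich proteoglycans other than *Dcn* and *Lum*, 5 had an unadjusted p under 0.05 and DESeq2 called 1, *Ecm2* (log2 fold change 0.35, edgeR adjusted p = 0.0792, DESeq2 adjusted p = 0.0288), and the median was 0.14. *Bgn*, biglycan, had 17043 ± 3878 against 12519 ± 3366 normalized counts (log2 fold change −0.45, edgeR adjusted p = 0.195, and −0.29 without MLPKO mouse 2). Of 8 fibrillar collagens, none passed either tool or an unadjusted p of 0.05 (median −0.10). *Col1a1* had 9779 ± 3348 against 8704 ± 2821 (log2 fold change −0.17, edgeR adjusted p = 0.739, and 0.06 without MLPKO mouse 2), and *Col3a1* 10275 ± 1217 against 13249 ± 4618 (0.37, adjusted p = 0.308, and 0.18 without cRADΔ/Δ-MLPKO mouse 3).

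Of 19 tested genes of activated fibroblasts, 13 were negative and 3 had an unadjusted p under 0.05 (median −0.20), and DESeq2 called 1, *Meox1*, a transcription factor of activated fibroblasts (log2 fold change −0.70, edgeR adjusted p = 0.137, DESeq2 adjusted p = 0.043). Without MLPKO mouse 2, its log2 fold change was −0.35. *Tnc*, tenascin-C, a partner of periostin, had 72.9 ± 54.7 against 132 ± 116 normalized counts (0.87, edgeR adjusted p = 0.39), and its log2 fold change was 1.43 without MLPKO mouse 2 and 0.17 without cRADΔ/Δ-MLPKO mouse 3. Of 6 PDGF ligands and receptors other than *Pdgfra*, 2 had an unadjusted p under 0.05 and DESeq2 called 0 (median 0.07). *Pdgfrb*, the receptor of mural cells, had 3219 ± 305 against 3190 ± 247 (−0.01, edgeR adjusted p = 0.947), and *Pdgfc*, a ligand of PDGFRα, 350 ± 216 against 164 ± 46.9 (−1.09, adjusted p = 0.139).

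**Figure D5:**
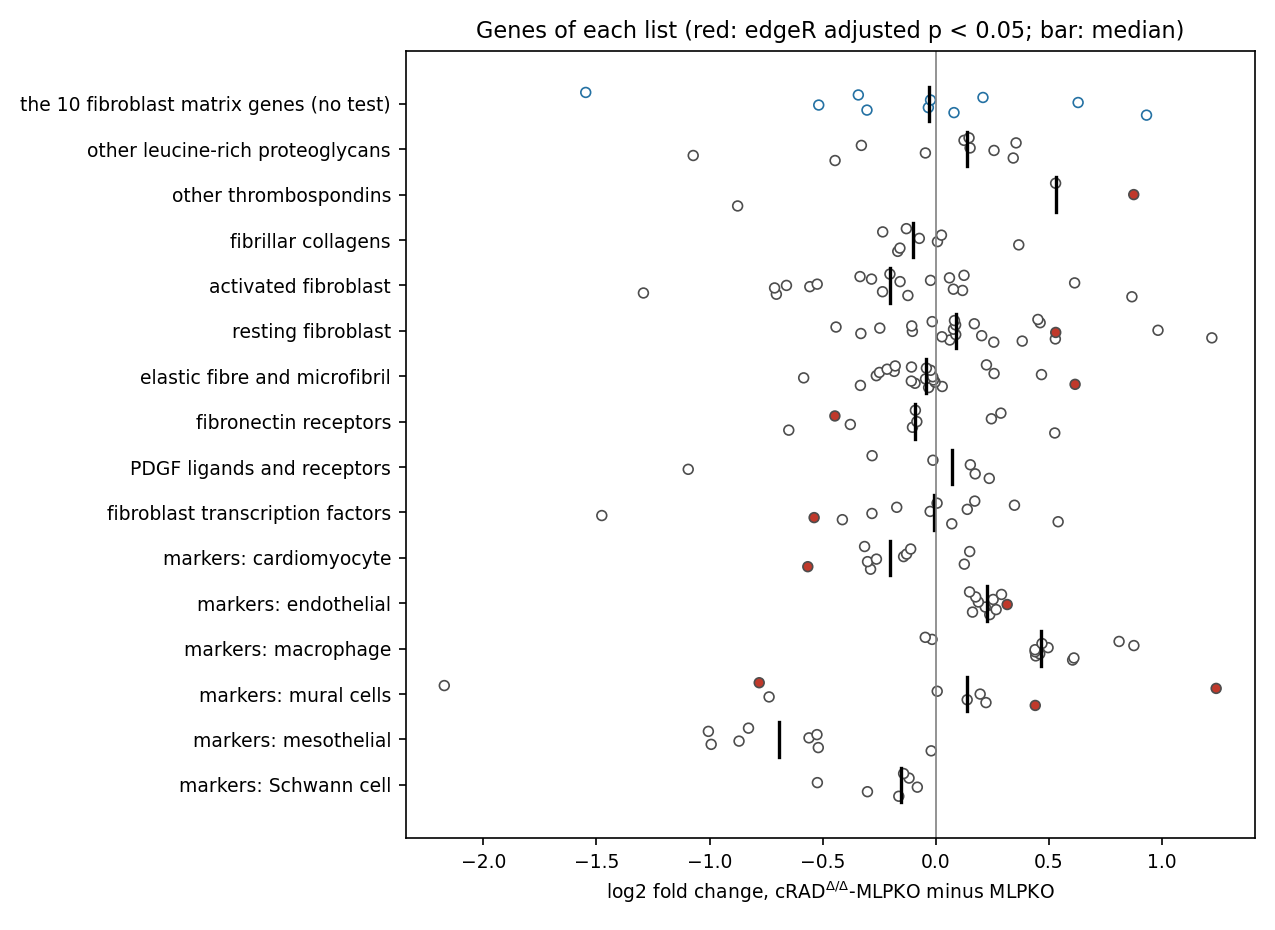
Log2 fold change, cRADΔ/Δ-MLPKO minus MLPKO (horizontal axis), of every tested gene of each list (circles, 1 per gene), with the median as a vertical bar and genes with an edgeR adjusted p under 0.05 in red. The 10 fibroblast matrix genes (blue, no test) spread from −1.55 to 0.93, endothelial markers lie on the positive side (median 0.23) and mesothelial markers have a median of −0.69.

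Markers of the other cells of the ventricle were read in the same libraries, in lists of at most 12 tested genes, and 5 of them were called by edgeR. Over all genes tested, edgeR called 2.74%, DESeq2 called 9.65%, and 21.6% had an unadjusted edgeR p under 0.05. All 10 endothelial markers were positive, with 1 called by edgeR (*Tek*, log2 fold change 0.32, edgeR adjusted p = 0.0196). Of the 10, 8 had an unadjusted p under 0.05 and DESeq2 called 4. Their sum was 47429 to 54857 normalized counts in MLPKO and 56945 to 65105 in cRADΔ/Δ-MLPKO, without overlap. Of 12 macrophage markers, 10 were positive, none was called by edgeR, 10 had an unadjusted p under 0.05 and DESeq2 called 5 (median 0.46, sums of 9205 to 13249 against 10885 to 23211). The smallest p among them was that of *Adgre1* (0.60, edgeR adjusted p = 0.0532). Of 10 cardiomyocyte markers, 8 were negative and *Tnnt2* was called lower (−0.57, edgeR adjusted p = 0.0185), with sums of 3741421 to 4164784 against 3006205 to 3716852. Of these 10, 4 had an unadjusted p under 0.05 and DESeq2 called 2 lower. The endothelial and cardiomyocyte sums did not overlap between the genotypes.

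Of 9 tested markers of pericytes and smooth muscle, *Acta2* (log2 fold change 1.24, edgeR adjusted p = 0.0461) and *Rgs5* (0.44, adjusted p = 0.0319) were called higher and *Des*, which cardiomyocytes also express, lower (−0.78, adjusted p = 0.0247), with a median of 0.14. Leaving out 1 mouse at a time, *Acta2* and *Des* stayed called in 4 of 10 fits each, *Rgs5* in 2, and *Tnnt2* and *Tek* in 9 each. With the mouse number as a block, the adjusted p of *Acta2* was 0.057. The pericyte and smooth muscle markers summed to 156357 to 250786 against 121963 to 143923, the third marker sum without overlap between the genotypes, as with *Dpt*. Most of this sum was *Des*, at 113552 to 211211 in MLPKO and 78686 to 98456 in cRADΔ/Δ-MLPKO. Of the 9 tested markers 6 were positive and 3 negative, so the sum does not show lower levels of the set. An unadjusted p under 0.05 was found for 6 of the 9, and DESeq2 called 2 higher and 1 lower. The part of endothelial cells, cardiomyocytes and mural cells in the *Dpt* value was not tested. All 8 mesothelial markers were negative (median −0.69, sums of 1111 to 2579 against 815 to 1801), 4 had an unadjusted p under 0.05, edgeR called none and DESeq2 1, *Upk1b* (−0.99, edgeR adjusted p = 0.0945). Of 6 tested Schwann cell markers, edgeR and DESeq2 called none and 1 had an unadjusted p under 0.05, *Cdh19* (−0.52, adjusted p = 0.121, median of the list −0.15). Neither tool called any of the 3 tested valve, tendon and cartilage markers, where none had an unadjusted p under 0.05 (median −0.22, smallest p for *Cytl1*, 0.36, adjusted p = 0.315), or of the 4 tested skeletal muscle markers, where 1 did (median −0.02, smallest p for *Ckm*, 0.27, adjusted p = 0.158). None of the 7 adipocyte markers passed the count filter. What part any of these cells had in the values of the 10 fibroblast matrix genes was not tested.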

How the data were processed

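RNA of 10 hearts was enriched for polyadenylated transcripts and sequenced as 1 library per mouse. Per the submitters' processing notes and methods, the authors used FastQC, STAR with the GRCm39 genome, and featureCounts. They deposited the raw counts of each gene, not normalized. Versions, strand and multimapping settings are not given in the sources used here. The table listed 60676 genes, of which 3491 were blank in every library and left out. Gene names and positions came from GENCODE M39, which named 56629 of the 57185 genes with counts.

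The 10 genes, the lists of other genes and the cell type markers were chosen with earlier results of these data known, so the genotype difference of the 10 is described without a test. As in the authors' methods, a gene needed over 10 counts in 6 or more of the 10 mice, and predicted Gm and Rik genes were left out, which gave 13452 genes. The authors used DESeq2. Here counts were normalized with TMM, and the genotypes, 5 mice each, were compared with edgeR 4.0.16 (glmQLFit, glmQLFTest, R 4.3.3), no covariate, and Benjamini-Hochberg adjustment over all genes tested, with a threshold of 0.05. Each library held 33457406 to 49965101 counts, and p-values measure the spread between mice. DESeq2 1.42.0, RLE and upper quartile factors, no filter, filterByExpr, Gm and Rik genes kept, the mouse number as a block and leaving out each mouse were alternatives. Leaving out MLPKO mouse 2 with cRADΔ/Δ-MLPKO mouse 1 or 3, and the permutation p-values and trimmed values of correlations and coefficients of variation, were chosen after seeing the data.

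Correlations used log2 CPM (prior count 2) computed from the deposited counts, minus the genotype mean, and exact permutation of mice within genotypes (14400 arrangements). Besides the 10 genes, the text names from each list the genes called (at most the 4 largest changes), or the 1 with the smallest p where none was, 7 genes fixed by name (*Col1a1*, *Col3a1*, *Bgn*, *Thbs1*, *Thbs2*, *Pdgfrb*, *Tnc*) and the 5 genes most like *Dpt* and like *Cilp* among tested genes with a mean log2 CPM of at least 1. Markers at or near 0 and genes that overlap or neighbour the 10 are named outside this rule. The edgeR step was tested on simulated counts of these 13452 genes with 200 changed 2-fold between the genotypes and recovered 83.0% of them, with 7.78% of its calls false. On the same simulated counts, DESeq2 recovered 86.0%, with 13.6% of its calls false. Sequences were read from the GRCm39 genome. The table has counts per gene, so single exons were not analysed here.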

Additional observations from a re-analysis of the deposited data

Results flagged for a closer look

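Single mice that lay far from the other 4 of their genotype, by Dixon's gap over range against its critical value of 0.71, are given here. Of 86 groups of 5 values checked (34 named genes and 9 marker sums in 2 genotypes), 17 held such a mouse. Sums of the matrix and fibroblast lists were not checked. Chance alone would set apart about 1 in 20 groups if the values were normally distributed and the groups independent. Many of these genes varied together, so no excess is read from the 17. MLPKO mouse 2 accounted for 10 of the 17. No cause was tested.

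Among the 10 fibroblast matrix genes, MLPKO mouse 2 stood apart with 5322 normalized counts of *Postn* (other MLPKO mice 2622 to 3331), 5790 of *Cilp* (2043 to 2742), 1624 of *Comp* (83 to 244) and 11130 of *Thbs4* (687 to 1229). The other such value was 2695 of *Thbs4* in cRADΔ/Δ-MLPKO mouse 1 (509 to 863). These are 5 of the 20 groups of these genes.

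MLPKO mouse 2 also stood apart for other matrix genes, with 23812 normalized counts of *Bgn* (14626 to 16790), 15561 of *Col1a1* (7393 to 9539), 2184 of *Meox1* (849 to 976), 170 of *Tnc* (42 to 57) and 4866 of *Prrx1* (3044 to 3282). Its pericyte and smooth muscle markers summed to 250786 (156357 to 180148). Most of that sum was *Des*, at 211211 in this mouse (113552 to 145059), which was not flagged by itself there. *Tnc* was 334 in cRADΔ/Δ-MLPKO mouse 3 (55 to 122), *Pdgfrb* was 2755 in cRADΔ/Δ-MLPKO mouse 4 (3261 to 3369), and *Des* was 98456 in cRADΔ/Δ-MLPKO mouse 1 (78686 to 83938). The valve, tendon and cartilage markers summed to 1279 in cRADΔ/Δ-MLPKO mouse 1 (830 to 938). The adipocyte markers summed to 3713 in cRADΔ/Δ-MLPKO mouse 3 (0 to 30) and to 38 in MLPKO mouse 5 (2 to 11).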

How the results depend on the processing

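Of the 10 fibroblast matrix genes, *Dpt*, *Fn1*, *Tcf21*, *Lum* and *Cilp* kept the sign of their log2 fold change under all 19 alternatives run, *Cilp* between −1.1 and −0.15 and *Fn1* between 0.44 and 0.84. The sign turned for *Postn* in 5, *Pdgfra* in 6, *Comp* in 4, *Thbs4* in 2 and *Dcn* in 1 of them, with ranges of −0.79 to 1.13 for *Comp* and −2.28 to 0.10 for *Thbs4*. Over all genes, 369 were called by edgeR, 1298 by DESeq2, 158 without MLPKO mouse 2 and cRADΔ/Δ-MLPKO mouse 3, and 43 (without MLPKO mouse 5) to 826 (without MLPKO mouse 4) when 1 mouse was left out. The 5 genes called in the 9 lists of matrix and fibroblast genes became 11 by DESeq2, 3 without MLPKO mouse 2 and cRADΔ/Δ-MLPKO mouse 1, 3 without MLPKO mouse 2 and cRADΔ/Δ-MLPKO mouse 3, and 0 to 10 when 1 mouse was left out, with 0 without MLPKO mouse 5 or cRADΔ/Δ-MLPKO mouse 5. The cause was not tested. The median r of the 45 pairs, 0.56, was 0.38 by Spearman and 0.33 without MLPKO mouse 2 and cRADΔ/Δ-MLPKO mouse 1. It was 0.27 without the 2 mice farthest out for the first gene of each pair. Those mice differ between pairs, and the genotype means were not recomputed without them. For 24 named genes, 456 alternatives left the call as it was 391 times, lost it 54 times and gained it 11 times. Only the genes called with all 10 mice, 5 in the 9 lists and 5 markers, could lose a call. The 391 thus include genes that stayed uncalled and do not measure how stable the calls were. The sign was not kept 6 times, for *Pdgfrb* (5) and *Col1a1* (1), neither of them called. The 5 calls in the marker lists became 15 by DESeq2 and 1 (without MLPKO mouse 5) to 11 (without MLPKO mouse 4) when 1 mouse was left out.

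The genotypes share mouse numbers in the labels, but the mice are different animals. The correlation of same-numbered mice ran from −0.04 to 0.15, and 2 of 5 MLPKO mice correlated best with their own number, so they were not taken as paired. With the mouse number as a replicate block, 281 genes were called, 5 of them in the 9 lists.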
